A study of Mus musculus with 4 samples.

Results

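Expression of 8 genes of the mouse Hoxa and Hoxb clusters (Hoxa5, Hoxa7, Hoxa9, Hoxa10, Hoxb2, Hoxb3, Hoxb4 and Hoxb5) was followed in bone marrow progenitors that differed in the histone methyltransferases Mll3 and Mll4. The genes were chosen by name, from a list, out of 32285 genes in the matrices, of which 39 were Hox genes. The series held 4 single-cell libraries of donor cells (CD45.2 positive) from the LSK fraction (negative for lineage markers, and positive for both Sca1 and Kit), which contains blood stem cells and multipotent progenitors. All were taken 10 weeks after transplantation, and 1 library each was labelled control, Mll3 deleted, Mll4 deleted and Mll3/4 deleted. The alleles, the deleting agent, the age of the animals and the number of animals behind each library are not given in the sources used here. The donor cells of every library, control included, had been transplanted. RNA and 6 surface proteins (CD150, CD48, CD201, CD135, CD117 and CD34) were counted together in each cell. Where 4 values follow each other, they stand for the control and then for the libraries labelled Mll3, Mll4 and Mll3/4.

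HOX proteins are transcription factors with a homeodomain that bind DNA together with partner homeodomain proteins of the MEIS and PBX families. Their genes lie in clusters in the order in which they are used along the body axis, and in blood the Hoxa and Hoxb clusters are active in stem cells and early progenitors and are turned down as cells mature. Mll3 and Mll4, the products of Kmt2c and Kmt2d, place methyl groups on histone H3 lysine 4, mainly at enhancers, whereas the related Mll1, the product of Kmt2a, is the family member best known for keeping Hox genes active.

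In the GRCm38 build the 4 Hoxa genes lie on the minus strand of chromosome 6, within a single cluster. Hoxa5 (ENSMUSG00000038253) spans chr6:52201754-52204587, Hoxa7 (ENSMUSG00000038236) chr6:52214491-52221854, Hoxa9 (ENSMUSG00000038227) chr6:52223100-52231089 and Hoxa10 (ENSMUSG00000000938) chr6:52231197-52240854. The 4 Hoxb genes lie on the plus strand of chromosome 11. Hoxb5 (ENSMUSG00000038700) spans chr11:96303336-96306121, Hoxb4 (ENSMUSG00000038692) chr11:96318267-96321638, Hoxb3 (ENSMUSG00000048763) chr11:96323326-96347930 and Hoxb2 (ENSMUSG00000075588) chr11:96350525-96354012. Whether the counting used strand is not given in the sources used here, so the counts of genes that overlap another gene are uncertain. Hoxa5 and Hoxa7 overlap the antisense gene Hoxaas3, Hoxb2 and Hoxb3 overlap Hoxb3os, Hoxb3 also overlaps Gm11536, and Hoxb5 overlaps Hoxb5os. On their own strand, Hoxa5 overlaps Hoxa3 and Gm28308, and Hoxa9 overlaps the microRNA gene Mir196b. Hoxa10 and Hoxb4 overlap no other annotated gene.

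The promoters of 5 of the 8 genes (Hoxa5, Hoxa7, Hoxa9, Hoxa10 and Hoxb4) were found in the RefSeq table for GRCm38.p6. The 250 bases before the RefSeq start are printed for Hoxa5 and Hoxa9, whose levels parted in 2 of the deleted libraries, and for Hoxb4, the Hoxb gene that kept the most transcript in the Mll3/4-labelled library. Each is written 5′ to 3′ on the gene's own strand, with CpG dinucleotides in capitals. The windows are chr6:52204588-52204837 (minus strand), chr6:52227371-52227620 (minus strand) and chr11:96318017-96318266 (plus strand).
Hoxa5: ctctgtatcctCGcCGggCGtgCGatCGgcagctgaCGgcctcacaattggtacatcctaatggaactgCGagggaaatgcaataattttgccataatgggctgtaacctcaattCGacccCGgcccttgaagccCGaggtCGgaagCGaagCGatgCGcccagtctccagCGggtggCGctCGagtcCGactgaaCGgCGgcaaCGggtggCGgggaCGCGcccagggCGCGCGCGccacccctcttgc
Hoxa9: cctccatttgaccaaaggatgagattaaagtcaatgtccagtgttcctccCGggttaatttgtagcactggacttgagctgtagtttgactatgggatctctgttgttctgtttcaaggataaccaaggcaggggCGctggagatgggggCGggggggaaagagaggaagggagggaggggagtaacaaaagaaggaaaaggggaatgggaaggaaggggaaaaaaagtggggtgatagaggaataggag
Hoxb4: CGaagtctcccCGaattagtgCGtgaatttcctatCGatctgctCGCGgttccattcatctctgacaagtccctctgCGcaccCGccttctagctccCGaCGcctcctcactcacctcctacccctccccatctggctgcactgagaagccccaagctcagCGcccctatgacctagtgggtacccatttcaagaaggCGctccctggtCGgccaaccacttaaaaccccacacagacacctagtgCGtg
These windows held 28, 3 and 14 CpG dinucleotides, against a median of 6 over 32851 promoter windows of the same length. Of all windows, 92.4% held fewer than the Hoxa5 window and 29.0% fewer than the Hoxa9 window. The Hoxa9 window lies inside the Hoxa9 span given above, so its count describes that RefSeq start and not the whole gene. Counts varied with the start used, and the Hoxa10 windows held 7 and 20. The CCAAT box (CCAAT, either strand) was found once in the Hoxa5 window and in neither of the others, and it occurs in 33.8% of all windows. The GC box (GGGCGG, either strand) was found once in the Hoxa9 window and occurs in 32.7% of all windows. The E-box (CACGTG) and a composite HOX and PBX motif (TGATNNAT, either strand) were in none of the 3 windows, and occur in 6.02% and 7.68% of all windows. These are matches of letters only.

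Cells were kept when they had at least 1000 genes and at most 10% of their unique molecular identifiers (UMIs, which count RNA molecules) from mitochondrial genes. This left 7274, 6101, 4793 and 4748 cells, with 50792614 to 120700343 UMIs per library. Pairs of libraries shared between 7 and 14 cell barcodes. Levels are UMIs per 1000000 of the summed UMIs of the cells in question, written CPM. Kmt2c was at 68.9, 35.3, 61.3 and 42.3 CPM, and Kmt2d at 24.6, 21.6, 22.6 and 25.4. Kmt2d did not separate the libraries labelled as lacking Mll4 from the others, and counts from the 3′ end do not show whether an upstream part of the gene is deleted, so libraries are named by their labels. Kit was at 215 to 362 CPM and Ly6a, which encodes Sca1, at 93.4 to 255 in the 4 libraries, so both transcripts behind the sort were present in all of them. The libraries differed widely in cell content. After thinning each cell to 3000 UMIs, 4687 of 4715 cells of the Mll3/4-labelled library (99.4%) carried at least 3 of 10 B-lineage marker genes, against 18 of 7260 in the control, 198 of 6084 in the Mll3-labelled and 25 of 4659 in the Mll4-labelled library. Cells with at least 3 of 6 granulocyte-monocyte progenitor markers made up 48.5% of the Mll4-labelled library, against 11.9% of the control, 8.61% of the Mll3-labelled and 0.0848% of the Mll3/4-labelled library. Summed over each list, the B-lineage genes were at 60.7, 341, 68.0 and 13158.8 CPM, the 6 granulocyte-monocyte progenitor genes at 1656, 2002, 11714.6 and 529, and 10 HSC genes at 806, 925, 481 and 134.8. The 8 neutrophil precursor genes were at 870, 340, 6176.8 and 4.23 CPM, the 7 mast cell genes at 6.63, 2.43, 893 and 0, and the 8 monocyte or macrophage genes at 14.2, 13.6, 520 and 6.24. The 7 mature B or plasma cell genes were at 2566 to 11042 CPM and the 8 T or innate lymphoid genes at 30.7 to 216. With 1 library per genotype no test was made. Every interval below is a 95% counting interval (exact Poisson for a level, exact binomial for a ratio or a share) and says nothing of the spread between animals.

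In the Mll3/4-labelled library Hoxa7, Hoxa9 and Hoxa10 stood close to the control and Hoxa5 above it, whereas all 4 were below control in the Mll4-labelled library. Hoxa9, the gene most often tied to stem cell self-renewal and leukaemia, had 9363, 7877, 3789 and 3757 UMIs. In CPM this was 78.5 (interval 76.9 to 80.1), 74.4 (72.7 to 76.0), 31.4 (30.4 to 32.4) and 74.0 (71.6 to 76.4). The Mll4-labelled library was thus the low one, 2.5-fold below control (2.41 to 2.60), and the other 3 libraries lay within a narrow range. Hoxa7, which lies next to Hoxa9 in the cluster, was also lowest in the Mll4-labelled library, at 50.1, 52.7, 21.2 and 56.1 CPM. Hoxa10, which is expressed in stem cells and early myeloid progenitors, was at 23.9, 23.1, 10.1 and 20.2 CPM. Its interval in the Mll3/4-labelled library (19.0 to 21.5) lay below that of the control (23.0 to 24.8), a difference of -0.24 on the log2 scale. Hoxa5 differed from the other 3 in the Mll3-labelled library. It was at 12.1, 18.5, 6.83 and 18.6 CPM. It was 1.53-fold above control in the Mll3-labelled library (1.43 to 1.64) and 1.54-fold above control in the Mll3/4-labelled library, and no other Hoxa member exceeded the control by as much in either.

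The Hoxb genes had their lowest levels in the Mll3/4-labelled library, and Hoxb4 kept more transcript than its neighbours. Hoxb2, an anterior gene of the cluster, had 2341, 2623, 614 and 22 UMIs, or 19.6, 24.8, 5.09 and 0.433 CPM. The Mll3-labelled level was 1.26-fold above control (1.19 to 1.34) and the Mll3/4-labelled level 44.3-fold below control, with an interval of 29.8 to 72.4. Hoxb3 was at 8.37, 8.33, 3.55 and 0.650 CPM, with 33 UMIs left in the Mll3/4-labelled library, 12.7-fold below control (9.11 to 18.8). Hoxb5, which marks long-term stem cells in mouse bone marrow, was at 5.93, 7.05, 4.41 and 0.413 CPM, with 21 UMIs in the Mll3/4-labelled library, 14.0-fold below control (9.32 to 23.3). These 3 genes were thus close to absent from the Mll3/4-labelled library and present in the other 3. Hoxb4, whose forced expression expands stem cells, was at 22.1 (21.3 to 23.0), 24.0 (23.1 to 25.0), 14.1 (13.4 to 14.8) and 9.61 (8.77 to 10.5) CPM. It had 488 UMIs in the Mll3/4-labelled library and was 2.3-fold below control there (2.09 to 2.54), a smaller gap than that of any other Hoxb member.

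**Figure D1:**
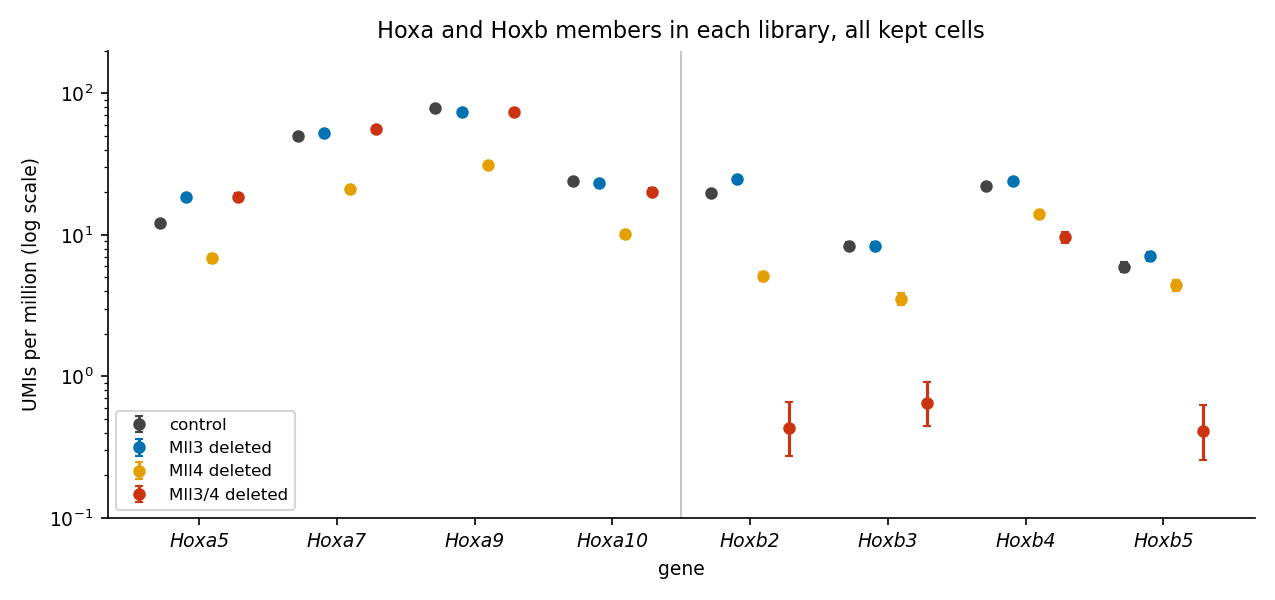
CPM (log scale) of the 8 genes in each library, over all kept cells. Bars are exact Poisson intervals at the 95% level. The red points (Mll3/4 deleted) lie near the control for Hoxa7, Hoxa9 and Hoxa10, above it for Hoxa5 (18.6 against 12.1) and below every other library for the 4 Hoxb genes, while the orange points (Mll4 deleted) lie below control for all 8.

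Set against the control, no member of either cluster was at least 2-fold lower or higher in the Mll3-labelled library. Among the 12706 genes that reached 1 CPM on average, 1.83% were at least 2-fold lower and 3.49% at least 2-fold higher in that library. The 8 log2 ratios ran from -0.08 (Hoxa9) to 0.61 (Hoxa5), with a median of 0.10, which is also the median of all genes (0.10). In the Mll4-labelled library 5 of 8 were at least 2-fold lower (Hoxa7, Hoxa9, Hoxa10, Hoxb2 and Hoxb3) and 0 were at least 2-fold higher, where 6.59% of all genes were lower and 9.59% higher. The median of the 8 was -1.24 against -0.10 for all genes, and the ratios ran from -1.95 (Hoxb2) to -0.43 (Hoxb5). Both clusters were on the low side there, with medians of -1.24 for the 4 Hoxa and -0.94 for the 4 Hoxb genes. In the Mll3/4-labelled library 4 of 8 were at least 2-fold lower, all 4 of them the Hoxb genes, and 0 were higher, where 17.4% of all genes were lower and 10.7% higher. There the 4 Hoxa genes had a median of 0.04 and ran from -0.24 (Hoxa10) to 0.62 (Hoxa5). The 4 Hoxb genes had a median of -3.74 and ran from -5.47 (Hoxb2) to -1.20 (Hoxb4), against a median of -0.13 for all genes. The 3 comparisons share the control library.

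**Figure D2:**
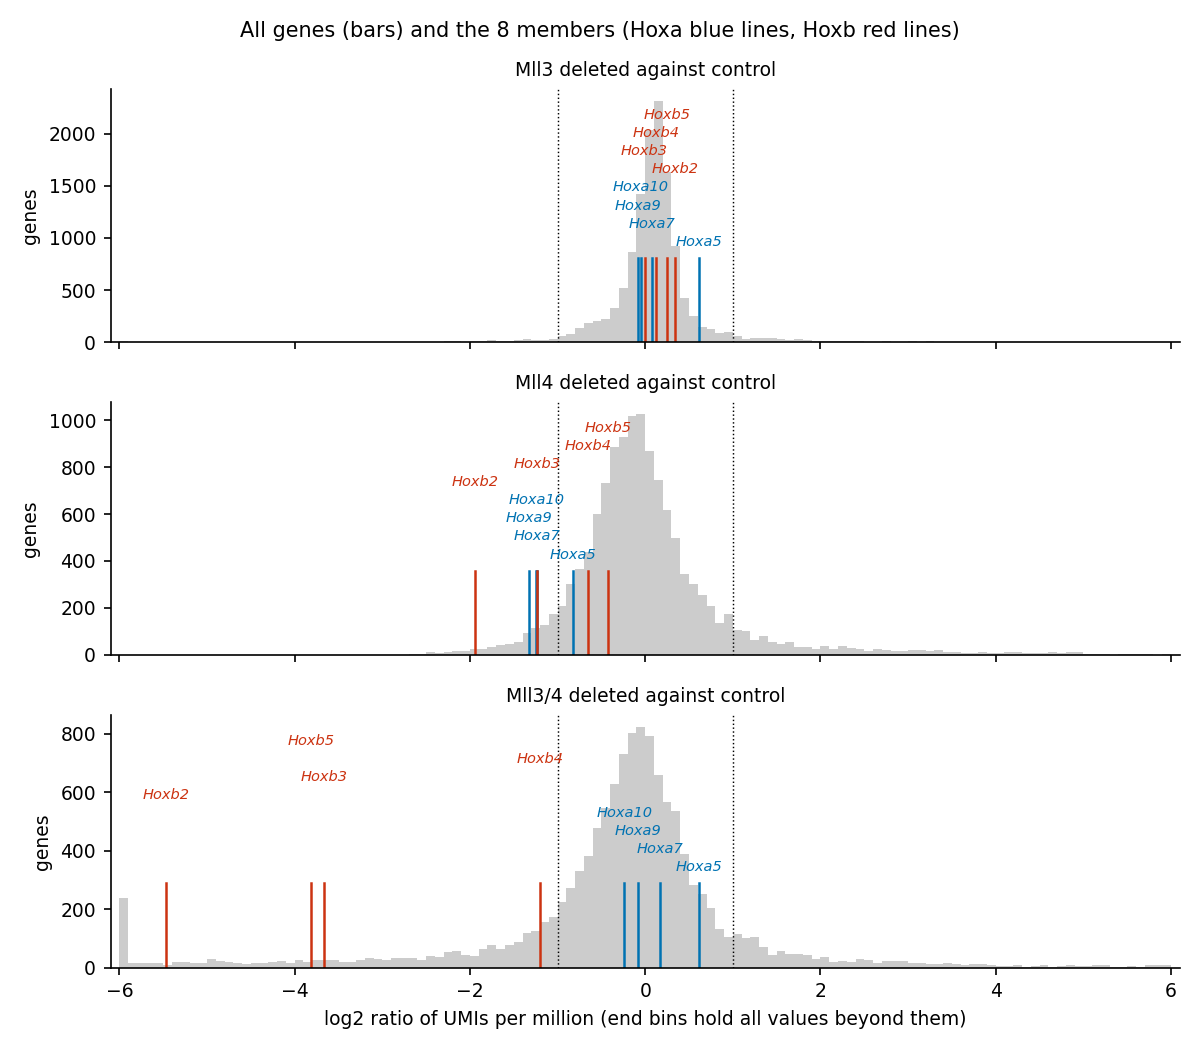
Number of genes (vertical axis) by log2 ratio to control (horizontal axis, bins of 0.1) in each deleted library, for the 12706 genes that reached 1 CPM on average. Blue lines mark the 4 Hoxa genes, red lines the 4 Hoxb genes and dotted lines a 2-fold difference; in the lowest panel Hoxb2, Hoxb3 and Hoxb5 stand at -5.47, -3.67 and -3.81 while the Hoxa genes stand within the bulk of genes.

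At equal depth per cell, the Mll4-labelled library also had the lowest share of cells with a Hoxa transcript, and the Mll3/4-labelled library the lowest share with a Hoxb transcript. With every cell thinned to 3000 UMIs, 39.7% of control cells had a UMI of at least 1 of the 4 Hoxa genes, against 39.3%, 14.9% and 36.3% in the deleted libraries. The thinning left out 14, 17, 134 and 33 shallower cells. For the 4 Hoxb genes the shares were 15.8%, 17.9%, 7.53% and 3.24%. The Hoxa share of the Mll3/4-labelled library was thus near that of the control and its Hoxb share was the lowest of the 4. Without thinning, at median depths of 14454, 15381, 21400 and 8920 UMIs per cell, the Hoxa shares were 86.0%, 86.2%, 37.5% and 70.3% and the Hoxb shares 52.9%, 56.7%, 31.7% and 9.75%. Hoxa9 alone was found in 20.95%, 20.3%, 6.76% and 18.2% of thinned cells. Hoxb2 alone was found in 5.77%, 7.36%, 1.35% and 0.127% of thinned cells, and Hoxb4 in 6.72%, 7.12%, 4.23% and 2.88%. In the Mll3/4-labelled library Hoxb3 was found in 0.127% and Hoxb5 in 0.106% of thinned cells. For scale, the 520 monocyte or macrophage marker cells of the Mll4-labelled library (median depth 11033 UMIs), another library with free RNA of its own, had Hoxa9 in 0.769%, Hoxb2 in 0.577%, Hoxb3 in 0.577%, Hoxb4 in 4.23% and Hoxb5 in 0.192% of thinned cells. The part of free RNA in the few Hoxb2, Hoxb3 and Hoxb5 UMIs of the Mll3/4-labelled library was not tested.

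Antibody gates divided each library into stem cells (HSC, positive for CD150 and negative for CD48 and CD135) and multipotent progenitors. Among cells negative for CD135, the MPP1 gate lacked CD150 and CD48, the MPP2 gate had both, and the MPP3 gate had CD48 alone. Cells with CD135 but no CD150 made up the MPP4 gate. Within the control library the Hoxb genes had their highest levels in the HSC gate. Hoxa7 and Hoxa9 had theirs in MPP4, with intervals that reach those of MPP1. Hoxa5 and Hoxa10 had theirs in MPP1, with intervals that overlap those of the HSC gate. Hoxb5 was at 13.4 CPM in the HSC gate, 7.33 in MPP1, 7.83 in MPP2, 3.23 in MPP3 and 2.39 in MPP4. Hoxb2 was at 32.5, 23.5, 23.4, 14.8 and 12.6 in the same gates, and Hoxb3 at 15.1, 12.5, 8.23, 5.56 and 5.54. Hoxb4 was at 28.3 in the HSC gate and 27.1 in MPP1, 2 gates whose intervals overlap, and at 19.1 in MPP3. Hoxa10 was at 35.6 in the HSC gate, 37.2 in MPP1 and 17.8 in MPP3, and Hoxa5 at 15.4, 17.1 and 10.1. Hoxa9 was at 73.1, 89.7, 60.2, 75.5 and 100.2 CPM, highest in MPP4, the lymphoid-biased gate, and Hoxa7 was at 44.4 in the HSC gate and 56.5 in MPP4. The log2 ratio of MPP4 to HSC was 0.45 for Hoxa9 (0.35 to 0.56) and -2.47 for Hoxb5 (-3.04 to -1.98).

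Within the HSC gate the Mll4-labelled library, low in all 8 genes over all cells, had genes on both sides of the control. The median log2 ratio of the 8 was -0.07, against -0.02 for all genes. The gate held 1726, 2707, 358 and 215 cells. Its size depended on the gating. It held 1062, 1147, 198 and 24 cells with antibody counts not centred, and 1457, 1763, 213 and 787 with thresholds fitted in each library. In the Mll4-labelled library 0 of 8 genes were at least 2-fold lower and 0 were higher, where 4.33% of 12633 genes were lower and 6.74% higher. Hoxa9 was lower, at 59.1 CPM (54.3 to 64.1) against 73.1 in the control (69.7 to 76.7). Hoxa10 was lower too, at 26.5 (23.4 to 30.0) against 35.6 (33.2 to 38.1). Hoxa5 was higher, at 20.9 (18.1 to 24.0) against 15.4 (13.8 to 17.0), and Hoxa7 was at 44.5 against 44.4. Hoxb5 was higher, at 24.8 (21.8 to 28.2) against 13.4 (12.0 to 15.0), a log2 ratio of 0.89 that became 1.06, past 2-fold, with gate thresholds fitted in each library. Hoxb2 was lower, at 22.8 against 32.5, and it was below control in all 5 gates compared and at least 2-fold below in 4 of them, more gates than any other member. Outside the HSC gate the share of all genes called was not computed, so whether this is particular to Hoxb2 was not tested. In MPP3, the gate that held 3343 of the library's cells, Hoxa9 was at 22.8 against 75.5, Hoxb2 at 2.82 against 14.8 and Hoxb5 at 1.45 against 3.23 CPM. Granulocyte-monocyte progenitor marker cells made up 56.8% of the MPP3 gate in the Mll4-labelled library and 21.1% in the control, and 23.8% and 1.57% of the HSC gate.

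In the Mll3-labelled library 0 of 8 genes were at least 2-fold lower or higher in the HSC gate, where 2.78% of genes were lower and 2.68% higher. Hoxa5 was at 23.8 CPM there against 15.4 in the control, and was the highest of the 8 by log2 ratio (0.63). In the Mll3/4-labelled library 5 of 8 were at least 2-fold lower in that gate and 0 higher, where 17.3% of genes were lower and 11.7% higher. The 5 were Hoxa10 and the 4 Hoxb genes. Hoxa10 was at 14.0 (9.47 to 20.04) against 35.6, and Hoxb4 at 8.42 (4.99 to 13.3) against 28.3 CPM. Hoxb5 had 0 UMIs against 310 in the control, which is at least 9.56-fold lower when 3 UMIs are allowed for the gate. Hoxb3 had 2 UMIs against 348, a log2 ratio with a counting interval of -7.06 to -2.14. Hoxa9, at 53.3 against 73.1, and Hoxa7, at 52.4 against 44.4, were not near that fold. A sixth gate, of cells with both CD150 and CD135, held 126, 222, 26 and 1767 cells. Over the 6 gates of the Mll3/4-labelled library, Hoxb2, Hoxb3 and Hoxb5 were each at least 2-fold below control in 6 of 6, and Hoxa7 was below control in 0 of 6. For these counts of gates, the share of all genes called was computed in the HSC gate alone. Several of the ratios rested on 3 or fewer UMIs in the Mll3/4-labelled library. They were Hoxb2 in MPP1, MPP2 and MPP4, Hoxb3 in HSC, MPP1 and MPP3, and Hoxb5 in HSC, MPP1 and MPP2. Hoxb3 in MPP2 rested on 4 UMIs (log2 -1.03, -3.11 to 0.24). Hoxb5 in MPP3, on 5 UMIs, went from -1.54 to -0.45 when antibody counts were not centred. B-lineage marker cells made up 208 of 214 thinned cells of the HSC gate in the Mll3/4-labelled library and 0 of 1725 in the control, so the same antibody gate held different cells in the 2 libraries. Their part in the differences within the gate was not tested.

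**Figure D3:**
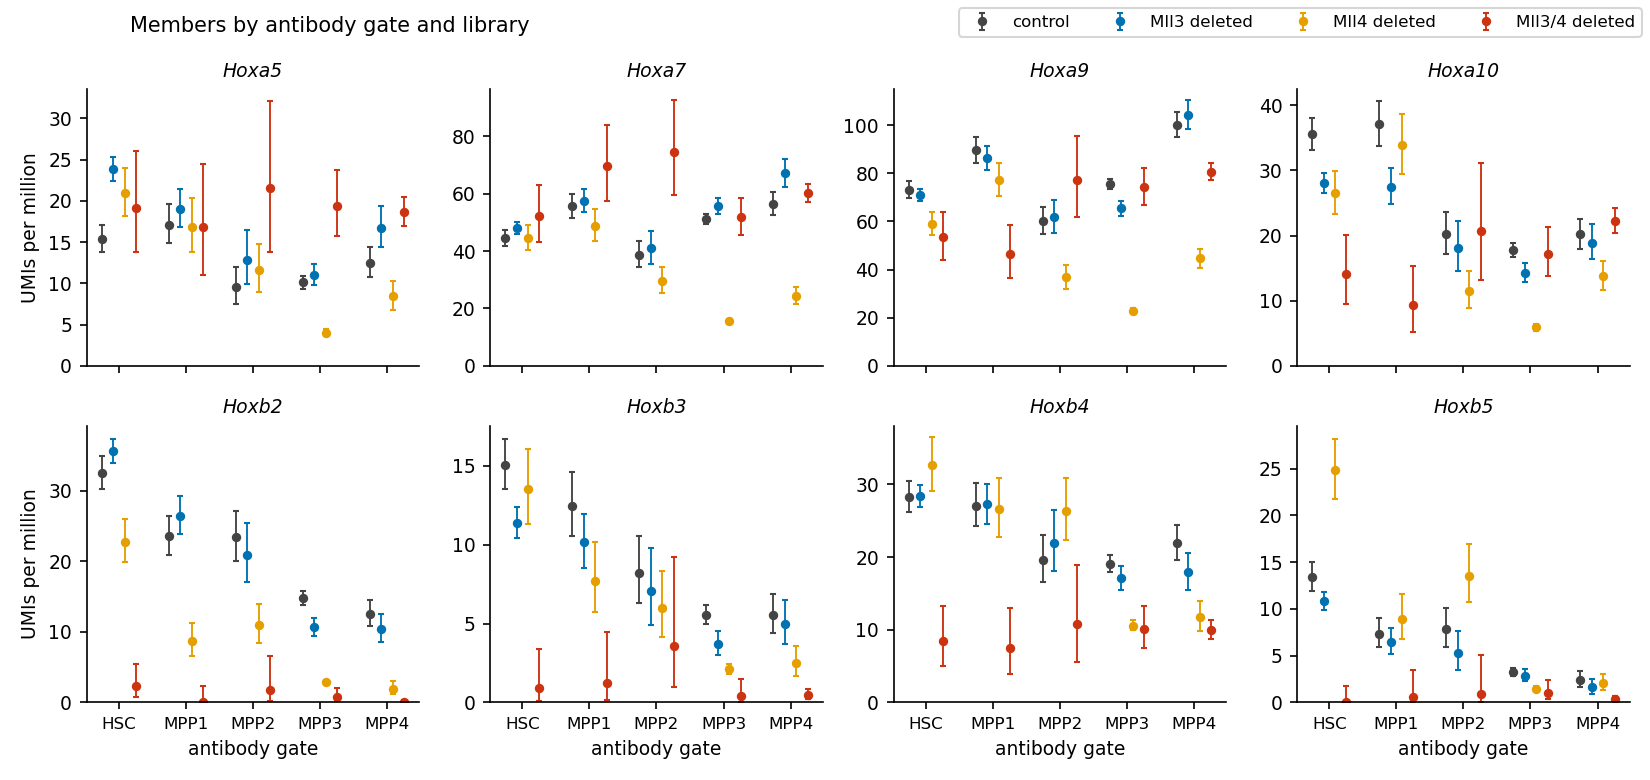
CPM of each gene (vertical axis, linear, from 0) in 5 antibody gates, by library. Bars are exact Poisson intervals at the 95% level. In the HSC gate the orange points (Mll4 deleted) stand on both sides of control, above it for Hoxb5 (24.8 against 13.4) and below it for Hoxb2. The red points (Mll3/4 deleted) lie below every other library for Hoxb2, Hoxb3 and Hoxb5 in all 5 gates.

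The Mll4-labelled library was examined next without some of its marker classes and within single classes. Leaving out cells of 5 other marker classes (neutrophil precursor, monocyte or macrophage, mast cell, mature B or plasma cell, T or innate lymphoid) kept 3288 cells and gave 5 of 8 genes at least 2-fold lower, and 4 of 8 when 2 listed genes put a cell in a class. Leaving out the granulocyte-monocyte progenitor marker cells too, a choice made after these values had been seen, kept 1676 cells and gave 1 of 8, Hoxb2, with a median of -0.28. Weighting the gates to their shares in the control also gave 1 of 8, and a stricter cell filter gave 3 of 8. The share of all genes called was not computed in these altered sets, so whether the smaller counts are particular to these genes was not tested. The part of cell content in the low levels was not tested. Among 2259 such cells of the Mll4-labelled library and 863 of the control, Hoxa9 was at 17.8 against 66.9 CPM (log2 -1.91, -2.02 to -1.79) and Hoxa7 at 12.9 against 49.3. Hoxb2 was at 3.19 against 13.7, and Hoxb5 at 2.09 against 1.82, a log2 ratio of 0.19 whose interval spans 0 (-0.35 to 0.78). In these cells 5 of 8 genes were at least 2-fold lower and 0 higher, where 7.12% of 12075 genes were lower and 9.37% higher. The same class of the Mll3-labelled library (524 cells) had Hoxa9 at 68.3 and Hoxb2 at 12.5 CPM, near the control. Hoxb5 was at the 2-fold line above control there, at 3.70 against 1.82 (log2 1.02, 0.34 to 1.72), on 42 and 34 UMIs. Hoxa5 was at 12.5 against 8.13 (log2 0.62). The share of all genes called was not computed for this class of the Mll3-labelled library. Among HSC marker cells (at least 3 of 10 genes), 602 in the Mll4-labelled library and 2191 in the control, Hoxa9 was at 73.3 against 88.0, Hoxb2 at 14.8 against 26.9 and Hoxb5 at 16.7 against 10.4 CPM.

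B-lineage marker cells of the Mll3/4-labelled library were set against those of the Mll3-labelled library, which with 198 held the largest number elsewhere. Sharing at least 3 markers does not show that the cells were of the same stage. Within the Mll3-labelled library itself, these cells had lower levels of all 8 genes than the other 5886 thinned cells. Hoxa9 was at 28.8 (24.2 to 33.9) against 76.6 CPM, Hoxa10 at 3.22 against 24.1 and Hoxa5 at 5.23 against 19.2. Hoxa7 was at 45.9 against 53.0, the smallest gap of the 8. Hoxb2 was at 2.41 against 25.9 and Hoxb4 at 11.5 against 24.6 CPM. Hoxb5 had 2 UMIs in these cells (0.402 CPM) against 7.37 CPM in the others, with a log2 interval of -7.24 to -2.34.

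The B-lineage marker cells of the Mll3/4-labelled library held more Hoxa transcript than those of the Mll3-labelled library. Hoxa9 was at 74.3 (71.9 to 76.7) against 28.8 CPM, a log2 ratio of 1.36 (1.13 to 1.62). Hoxa10 was at 20.3 (19.1 to 21.6) against 3.22 (1.84 to 5.23), a log2 ratio of 2.61, on 16 UMIs in the Mll3-labelled cells. Hoxa5 was at 18.7 against 5.23, a log2 ratio of 1.81 (1.28 to 2.46), and Hoxa7 at 56.2 against 45.9, a log2 ratio of 0.29. The Hoxb genes did not share this. Hoxb2 was at 0.280 (0.153 to 0.470) against 2.41 (1.25 to 4.22) CPM, on 14 and 12 UMIs. Hoxb4 was at 9.48 against 11.5 and Hoxb3 at 0.580 against 1.01, with intervals of the log2 ratio that span 0 (-0.67 to 0.15 and -2.18 to 0.93). Hoxb5 had 19 and 2 UMIs, at 0.380 and 0.402 CPM, too few to show a difference. Of the 6 members with a mean of at least 1 CPM in these cells, 3 were at least 2-fold higher (Hoxa5, Hoxa9 and Hoxa10) and 1 lower (Hoxb2), where 17.2% of 11921 genes were higher and 12.2% lower. With the highest doublet scores removed, the log2 ratios between these marker cells were 1.70 for Hoxa9, 5.08 for Hoxa10 and -1.44 for Hoxb2, and those of Hoxb3, Hoxb4 and Hoxb5 turned to 0.07, 0.08 and 0.14. Removal left 178 of the 198 Mll3-labelled cells. In these, Hoxa10 and Hoxb2 rested on fewer UMIs than the 16 and 12 above, so both ratios are imprecise and depend on the cells removed. Set instead against the other cells of the Mll3-labelled library, the B-lineage marker cells of the Mll3/4-labelled library had log2 ratios of -0.04 for Hoxa9 (-0.10 to 0.01), -0.03 for Hoxa5 and -6.48 for Hoxb2. In the Mll3/4-labelled library 28 thinned cells lacked the B-lineage class, and these 0.594% of cells held 8 of the 22 Hoxb2 UMIs (36.4%, 17.2% to 59.3%) but 35 of 3748 Hoxa9 UMIs (0.934%).

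**Figure D4:**
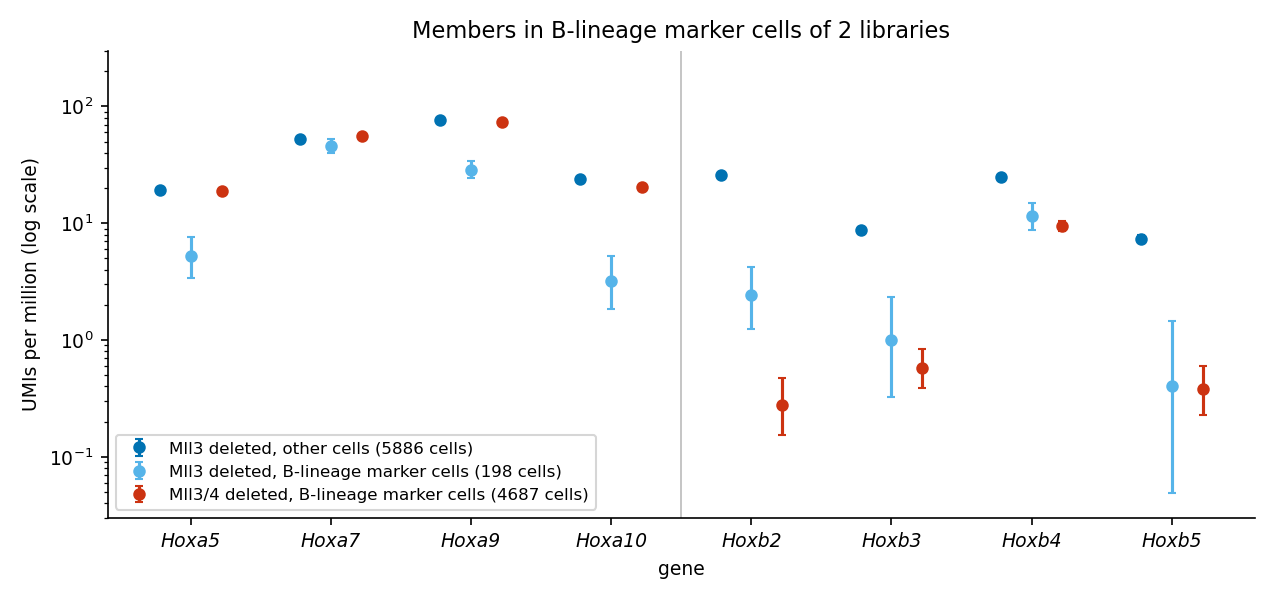
CPM (log scale) of the 8 genes in B-lineage marker cells of the Mll3/4-labelled library (red), in those of the Mll3-labelled library (light blue) and in the other cells of the Mll3-labelled library (dark blue), with exact Poisson intervals at the 95% level. For Hoxa5, Hoxa9 and Hoxa10 the red points lie near the dark blue ones (Hoxa9, 74.3 and 76.6) and above the light blue (28.8); for the Hoxb genes the red points lie at or below the light blue.

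The neighbours of the 8 genes within each cluster were examined next, taking the Hox genes with at least 50 UMIs over the 4 libraries, 8 in the Hoxa and 8 in the Hoxb cluster. Of the Hoxc genes, Hoxc6 alone reached that number (109, 84, 27 and 0 UMIs), and no Hoxd gene did. Hoxa3 was at 8.91, 10.97, 4.76 and 10.4 CPM, an order like that of Hoxa5. Hoxa6 was at 2.82, 3.47, 1.57 and 5.69, with a log2 ratio of 1.02 (0.78 to 1.25) in the Mll3/4-labelled library. Hoxa2, at the anterior end, was at 0.880, 1.90, 0.381 and 0.473. Along the Hoxb cluster the low values of the Mll3/4-labelled library were not uniform. Hoxb6 was at 1.78 CPM in the control and 0.394 in that library, and Hoxb8 at 1.11 and 0.433. Hoxb7, which lies between them, was at 0.595 in the control and 1.42 in that library, a log2 ratio of 1.25 (0.76 to 1.75) on 71 and 72 UMIs. In B-lineage marker cells Hoxb7 was at 2.41 CPM (1.25 to 4.22, on 12 UMIs) in the Mll3-labelled library. It was at 1.44 (1.13 to 1.81) in those of the Mll3/4-labelled library. Hoxb9 had 47 UMIs in the control and 2 in that library (log2 interval -6.41 to -1.39). The antisense genes that overlap Hoxb2, Hoxb3 and Hoxb5 also had their lowest levels in the Mll3/4-labelled library. Hoxb3os was at 12.1, 8.37, 4.90 and 0.394 CPM, and Hoxb5os at 6.39, 4.81, 2.65 and 0.138. Hoxaas3, the antisense gene in the Hoxa cluster, was at 2.99, 2.88, 2.87 and 2.84, and so did not share the low Hoxa values of the Mll4-labelled library. Whether the counts separate overlapping antisense pairs by strand is not given in the sources used here.

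**Figure D5:**
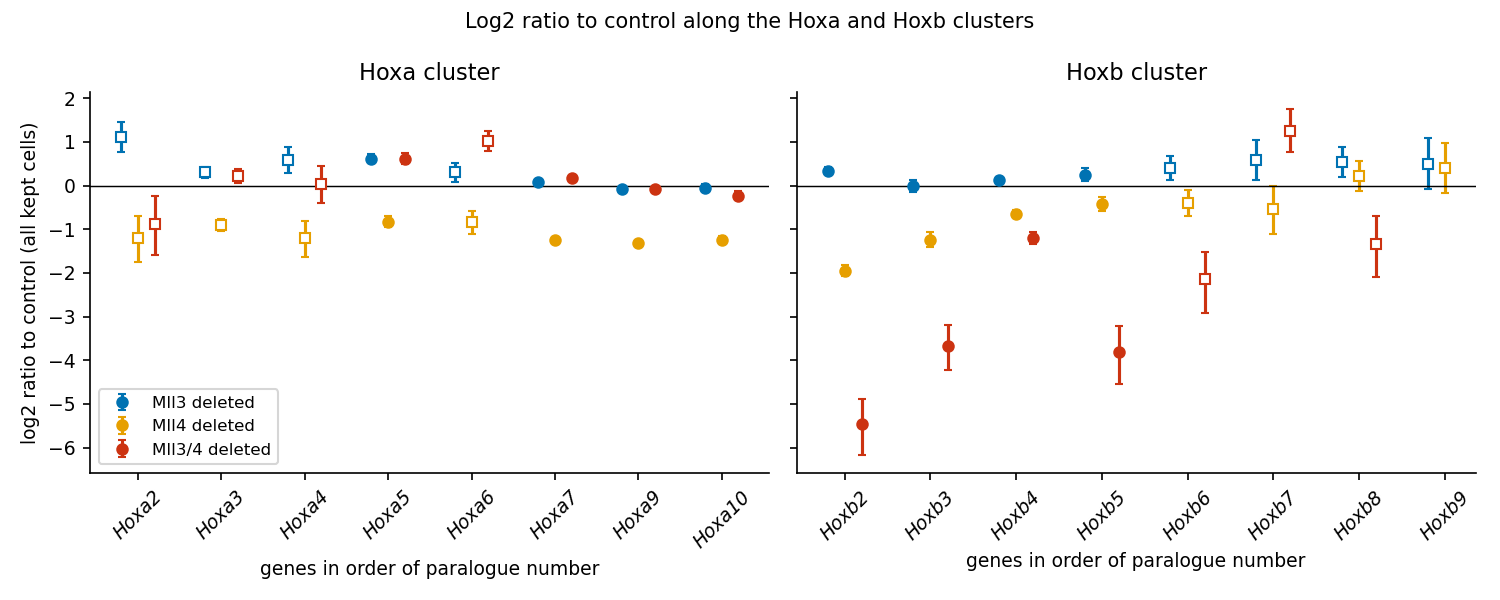
Log2 ratio to control, over all kept cells, for genes of the Hoxa and Hoxb clusters in order of paralogue number. Filled circles are the 8 genes, open squares are other Hox genes of the clusters, bars are 95% counting intervals, and values resting on 3 or fewer UMIs in either library are left out (Hoxb9 in the Mll3/4-labelled library); Hoxb7 stands above 0 (1.25) between Hoxb6 (-2.15) and Hoxb8 (-1.34).

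Partner proteins, regulators and reported targets of HOX proteins were counted from lists. Of 9 partner genes, 6 had a mean of at least 1 CPM, of which 0, 2 and 1 were at least 2-fold lower in the 3 deleted libraries in turn, with 0 higher in each, where 1.83%, 6.59% and 17.4% of all genes were lower and 3.49%, 9.59% and 10.7% higher. Their median log2 ratios were 0.23, -0.68 and -0.17. Meis1, the main HOX cofactor in stem cells, was at 185, 233, 79.6 and 55.6 CPM, lowest in the Mll3/4-labelled library as the Hoxb genes were. Pbx3, which encodes a PBX partner, was at 18.0, 28.5, 13.1 and 34.2 CPM, lowest in the Mll4-labelled library as the Hoxa genes were. Pknox1 and Pbx2 had log2 ratios no further from 0 than -0.36 and 0.12. Of 18 regulators of the clusters, 15 reached that mean, and 0 were at least 2-fold lower or higher in any library, set against the same shares of all genes, with medians of 0.07, -0.19 and 0.13. Kmt2a, the gene of Mll1, was at 165, 161, 114 and 210 CPM. Men1, whose product menin joins Mll1 to chromatin, was at 21.6, 24.9, 18.0 and 42.7, and Psip1, which encodes another protein of that complex, at 259, 273, 144 and 284. Ezh2 and Bmi1, of the repressive Polycomb complexes, were at 164 and 21.6 in the control and 254 and 31.3 in the Mll3/4-labelled library.

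Genes reported as Hoxa9 targets differed from control in both directions. Of 12, 1 was at least 2-fold higher and 0 lower in the Mll3-labelled library, 2 were higher and 2 lower in the Mll4-labelled library, and 2 were higher and 6 lower in the Mll3/4-labelled library, where Hoxa9 itself was near control. Of all genes, 3.49% were higher and 1.83% lower, 9.59% higher and 6.59% lower, and 10.7% higher and 17.4% lower in the same libraries. Il7r, the receptor of the lymphoid cytokine interleukin 7, was at 5.16, 14.4, 52.8 and 1019.7 CPM. Lmo2, a stem cell factor, was at 722, 905, 338 and 10.0, and Cd34 at 332, 261, 199 and 5.18. Id2 was at 10.5, 12.1, 67.1 and 8.56, and Pim1, a kinase gene, at 213, 179, 117 and 52.7. Il7r is also a gene of early B cells, and Cd34 and Lmo2 are genes of stem cells, and the libraries differed in such cells. Il7r was above control in the Mll4-labelled library, where the summed B-lineage genes were at 68.0 against 60.7 CPM. Cd34 was below control in the Mll3-labelled library, where the summed HSC genes were at 925 against 806 CPM. The part of cell content or of Hoxa9 in these values was not tested.

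Genes outside the clusters whose pattern was most like the summed 8 genes were sought over 23 sums of a gate in a library with at least 100 cells, among 6157 genes, by Pearson correlation of log2(CPM + 1). The points share libraries and depth, so the values describe likeness only. The highest were Xrcc5 (0.91), Hdgfl3 (0.91), Mfng (0.90), Slc25a27 (0.90) and Tfam (0.90). Taken apart, a choice made after the values had been seen, the clusters had different nearest genes. For the 4 Hoxb genes these included Rhbdd2 (0.98), Meis1 (0.98), E2f6 (0.97) and Adgrg1 (0.97). For the 4 Hoxa genes they were Cxxc5 (0.89), Dusp2 (0.89), Gimap1 (0.87), Rcn2 (0.87) and Slc25a27 (0.86).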

How the data were processed

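Single-cell RNA and antibody tags of 4 libraries were analysed, 1 per genotype. The deposited values are raw counts of UMIs and antibody tags per cell barcode, which the authors made with Cell Ranger 6.1.1 and mm10, per the submitters' processing notes, from 10x Genomics 3′ version 3.1 libraries, per the labels' protocols. The annotation release, the use of strand and the filter that chose the barcodes are not given in the sources used here. Of 32285 gene identifiers, 32158 (99.6%) were found in GENCODE mouse release 21, which gave the coordinates.

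Each library took its group from its title. The 8 genes, the lists and the markers were chosen with earlier results of these data known. Named genes were the 8, other Hox genes with at least 50 UMIs, up to 5 genes per list with a mean of at least 20 CPM and the largest log2 ratio in any library, and the 5 genes most like the sum of the 8. UMIs were summed over kept cells and scaled to a total of 1000000 (CPM), and log2 ratios were taken after adding 0.5 UMIs. Called means at least 2-fold. Antibody counts were turned into centred log ratios (natural log) and gated at 1 Gaussian mixture threshold per antibody for all libraries. A marker class holds cells with UMIs of at least 3 genes of its list after thinning to 3000 UMIs, so cells below that depth are in no class. Doublets were left in: the threshold chosen by Scrublet (scanpy 1.11.5) called 3, 3, 152 and 1 cells and so had not worked in most, and removing the 423, 298, 184 and 180 highest scores was an alternative. Other alternatives were TMM (edgeR 4.0.16) and median-of-ratios (DESeq2 1.42.0) scaling, other totals, equal weight per cell, other cell filters, gates, classes and thinning depths. The ratio and interval code was tested on simulated counts. Some genes that the naming rule selects are not reported here.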

Additional observations from a re-analysis of the deposited data

Results flagged for a closer look

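For 3 genes the Mll4-labelled library stood above control in the HSC gate and below it in the MPP3 gate, each beyond counting error. Hoxb5 had log2 ratios of 0.89 and -1.16, a difference of 2.05. Hoxa5 had 0.45 and -1.35, a difference of 1.79, and Hoxb4 had 0.21 and -0.85, a difference of 1.06. Between the HSC and MPP4 gates of the same library the difference was 1.01 for Hoxa5 (0.45 and -0.57) and 1.10 for Hoxb4 (0.21 and -0.89). In the Mll3-labelled library Hoxb2 had log2 ratios of 0.13 in the HSC gate and -0.47 in the MPP3 gate, a difference of 0.60. That MPP3 ratio depended on the gating and ran from -0.70 to -0.085 over 2 alternative gatings. With 1 library per genotype the difference between gates was not tested.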

How the results depend on the processing

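No paired analysis was possible because each genotype had 1 library, and for the same reason none could be left out. The number of genes at least 2-fold lower stayed at 0 of 8 in the Mll3-labelled and 4 of 8 in the Mll3/4-labelled library under 11 alternatives. In the Mll4-labelled library, 5 of 8 became 4 without other marker classes at 2 genes, 3 with the stricter cell filter and 1 both with gates weighted to control shares and with the granulocyte-monocyte progenitor and other marker classes left out, an alternative added after the data had been seen. The share of all genes called was not computed under these alternatives. The median log2 ratio of the 8 genes there moved from -1.24 to -0.94 with the stricter filter, -0.64 with gates weighted, -1.08 and -1.03 without other marker classes at 3 and 2 genes, -0.28 without the granulocyte-monocyte class as well, and -1.37 with equal weight per cell. In the Mll3/4-labelled library it moved from -0.72 to -0.85 with equal weight, -0.56 with the stricter filter and -0.96 with gates weighted. In the Mll3-labelled library it moved from 0.10 to -0.00015 with TMM, 0.00074 with median-of-ratios scaling, 0.014 without mitochondrial and ribosomal protein genes and -0.086 with gates weighted. No called member reversed. Hoxb5 in the Mll4-labelled library, which was not called, ranged from -0.75 to 0.46. In B-lineage marker cells, Hoxa10 ranged from 2.17 to 5.08 and Hoxb2 from -3.52 to -1.44 over 3 alternatives added after the data had been seen. The values of 5.08 and -1.44, with the highest doublet scores removed, rested on few UMIs in the Mll3-labelled cells. The share of all genes at least 2-fold lower was 0.457%, 3.28% and 10.5% (Mll3, Mll4 and Mll3/4) at a minimum of 20 CPM, against 1.83%, 6.59% and 17.4%. The depth limits Hoxb2, Hoxb3 and Hoxb5 in the Mll3/4-labelled library, where 21 to 33 UMIs remained.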
